A study of Mus musculus with 2 samples.

Results

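Phosphate transport and vitamin D metabolism in the kidney were described through 10 genes, chosen by symbol from the 20002 genes of the expression table: the sodium-phosphate cotransporters Slc34a1, Slc34a3, Slc20a1 and Slc20a2, the scaffold Slc9a3r1, the hormone receptors and co-receptor Pth1r, Fgfr1 and Kl, and the vitamin D enzymes Cyp27b1 and Cyp24a1. All 10 passed the minimum of 10 scaled reads in either library, as did 17469 genes in all. RNA-seq of whole kidney was compared between 1 library of control mice and 1 library of mice in which Regnase-2, an RNA-degrading protein encoded by Zc3h12b, was targeted (CKO). The mice had the C57BL/6J background and no other treatment, and left kidney tissue was the source of RNA. CKO mice received AAV9 carrying shRNA against Regnase-2 by tail vein at 11 weeks of age. Controls received AAV9 that is described as control shRNA in the RNA-seq methods and as an empty vector in the injection methods. The age at analysis is given as 14 weeks for the RNA-seq and as 16 weeks in the injection methods. The labels name a conditional knockout specific to proximal tubules, whereas the methods describe a knockdown by a virus that reaches these cells, with no Cre line or promoter named. Whether a library came from 1 mouse or from a pool is not stated. With 1 library per group the differences have no replicate check, no test was made, and each interval below covers counting error only.

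Phosphate is filtered at the glomerulus and taken back in the proximal tubule, mainly by the cotransporters NaPi-IIa and NaPi-IIc of the brush border, which the scaffold NHERF1 helps to hold at the membrane. Parathyroid hormone, through its receptor, and the bone hormone FGF23, through FGF receptors joined to alpha-Klotho, both lower this uptake. In vitamin D metabolism the hormones act in opposite ways: parathyroid hormone raises and FGF23 lowers the enzyme that makes calcitriol, the active form, while FGF23 and calcitriol itself raise the enzyme that breaks it down.

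The values of each column started well above 0, at 35 for the control and 51 for CKO, so 34 and 50 were subtracted and the remainder was taken as reads. This left 38851231 reads in the control library, against 43588721 in the library labelled CKO. To bring the libraries to a common scale, CKO reads were multiplied by 0.667, the median gene ratio between control and CKO, and log2 ratios of CKO over control were taken with a pseudocount of 1. Zc3h12b, the targeted gene, on the X chromosome from 95711678 to 95932637 (GRCm38, GENCODE M21, as for all gene positions here), had 47 reads in the control library, against 59 in the library labelled CKO. The log2 ratio of -0.25 had a 95% Clopper-Pearson interval of -0.83 to 0.33, so a difference was not detectable at this depth and the target does not check the labels. Within these reads every direction below therefore rests on the library labels. The paper reports less Regnase-2 by immunofluorescence and more NGAL staining in the kidneys of CKO mice. Both are stains of tissue and not measures of these libraries. From RNA-seq of this comparison the paper also reports prominent upregulation of Lcn2, the gene of NGAL, a result that rests on the same labels.

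Of the 10 genes, 4 were higher in the library labelled CKO, against 51.5% of all 17469 genes, and 6 were lower, against 48.3%. At least 2-fold higher were 2 of them, Cyp24a1 and Cyp27b1, where 13.4% of all genes were. At least 2-fold lower was 1, Slc34a1, where 5.35% of all genes were. Because each gene is 10% of the set, these counts do not set the genes apart from the background. The median log2 ratio of the 10 genes was -0.37, beside 0.022 for all genes, whose middle range between quartiles ran from -0.33 to 0.48. This median and the tally of higher and lower genes depended on the processing. When the library totals were made equal, 5 were higher and 5 lower, and the median was 0.049. That changes only the factor and moved the median of all genes to 0.44. With the deposited values left unaltered 6 were higher and 4 lower, and the median was 0.22, beside 0.57 for all genes. Leaving them unaltered changes both the subtraction and the factor and takes in all 20002 genes. The shares of all genes higher or lower with equal totals and with unaltered values are not given. Since the median of all genes was above 0 in both, these tallies do not set the 10 genes apart. In each of these settings the median of the 10 genes lay below that of all genes.

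Per kilobase of the longest annotated transcript, the measure used to compare genes with each other, the level of Slc34a1 was the highest of the 10 in both libraries, at 36923 scaled reads in the control, against 16424 in the library labelled CKO. Pth1r followed at 8416 and 4437, and then Slc9a3r1 at 5083 and 3667. Kl came next at 3778 and 2053. The order of these 4 genes was the same in both libraries. Below them Slc34a3, Slc20a2 and Slc20a1 stood at 1031, 453 and 355 reads per kilobase in the control library. In the library labelled CKO, Slc20a1, at 635, stood above Slc34a3 at 541 and Slc20a2 at 376. With this length the 3 lowest levels in both libraries were those of Fgfr1 at 292 and 315, Cyp27b1 at 103 and 214, and Cyp24a1 at 13.5 and 91.0. There is no replicate spread by which to judge neighbours in this order, and parts of it depend on the transcript length used. With the median length of each gene's transcripts, the lead of Slc34a1 over Pth1r in the control library changed from 4.39-fold to 7.42-fold. Slc20a1, at 1187 in the library labelled CKO, was then below Slc34a3 at 1879 and Slc20a2 at 2735, and Slc20a2 was above Kl at 2186. In the control library Fgfr1, at 775, was then above Slc20a1 at 664. Slc34a1, Pth1r and Slc9a3r1 led in both libraries, and Cyp27b1 and Cyp24a1 were the lowest, with either length.

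**Figure D1:**
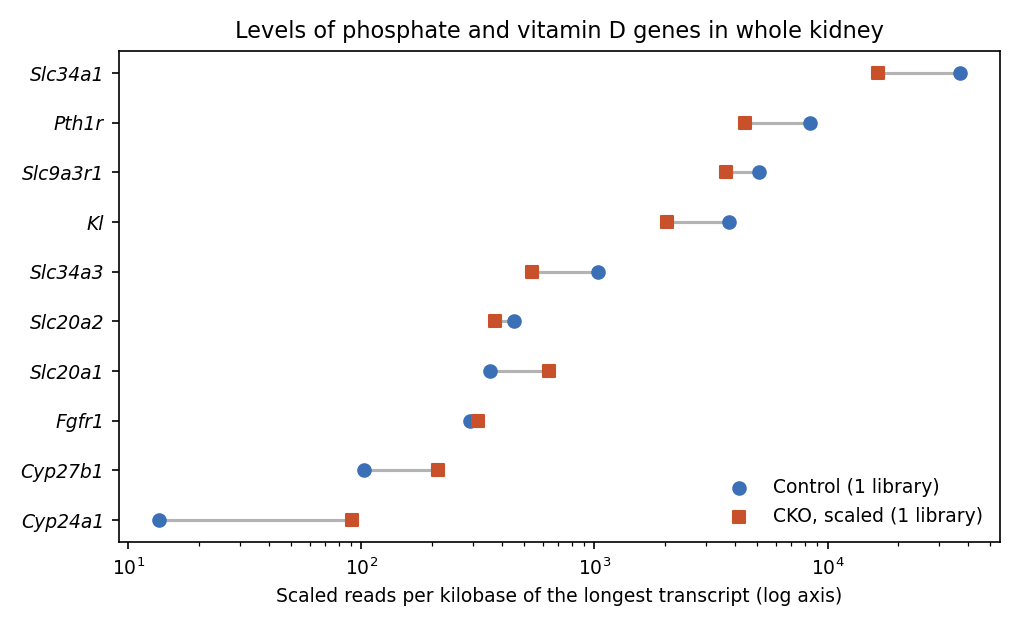
Levels of the 10 genes in the control library (circles) and the library labelled CKO (squares), in scaled reads per kilobase of the longest transcript on a log axis, 1 library each. Levels run from 13.5 for Cyp24a1 to 36923 for Slc34a1 in the control library, and Slc20a1 lies above Slc20a2 and Slc34a3 in the library labelled CKO, an order that is lost with the median transcript length.

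Slc34a1 encodes NaPi-IIa, which carries most of the phosphate uptake in the mouse proximal tubule, and lies on chromosome 13 from 55398187 to 55415592 on the plus strand. It had 147064 reads in the control library, against 98124 in the library labelled CKO, which is 65416 after scaling. The control level was 2.25-fold higher (95% interval 2.23 to 2.27), and the log2 ratio of -1.17 ranked 16815 of 17469 genes from the top. Slc34a1 alone took 0.379% of all reads in the control library, against 0.225% in the library labelled CKO. It was lower under every alternative setting tried, but by less than 2-fold with equal totals (-0.75) and with unaltered values (-0.58). An exon of Slc34a1 overlaps Pfn3 on the opposite strand, which had only 119 and 93 reads.

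Slc34a3 encodes NaPi-IIc, the other brush border cotransporter of this family in the proximal tubule, on chromosome 2 from 25228898 to 25234364 on the minus strand. It had 2251 reads in the control library, against 1770 in the library labelled CKO, for a log2 ratio of -0.93 (95% interval -1.02 to -0.84). Its ratio was negative in every setting tried, and the largest value among them was -0.24. The number of Slc34a1 reads per Slc34a3 read, which needs no scaling between libraries, was 65.3 (62.7 to 68.1) in the control, against 55.4 (52.9 to 58.1) in the library labelled CKO. By this ratio Slc34a1 was lower by more than Slc34a3, beyond counting error.

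Slc20a1 encodes PiT1, a sodium-phosphate cotransporter found in most cell types and also known as a virus receptor, on chromosome 2 from 129198764 to 129211616 on the plus strand. It had 1178 reads in the control library, against 3158 in the library labelled CKO, and so was 1.79-fold higher after scaling (95% interval 1.67 to 1.91), with a log2 ratio of 0.84 that exceeded 2-fold with equal totals (1.26) and with unaltered values (1.40). Its relative Slc20a2, which encodes PiT2, lies on chromosome 8 from 22476788 to 22569612 on the plus strand. Slc20a2 had 1614 and 2010 reads, and its log2 ratio of -0.27 changed sign to 0.15 with equal totals and to 0.32 with unaltered values. The ratio within the pair needs no scaling. There were 0.730 Slc20a1 reads per Slc20a2 read (0.676 to 0.787) in the control, against 1.57 (1.49 to 1.66) in the library labelled CKO. Slc20a2 shares exon sequence with Smim19 on the opposite strand, which had 861 and 893 reads, and the opposite-strand partners of Slc20a1, 9830144P21Rik and Gm4430, were not analysed here.

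As shares of the reads of the 4 cotransporters together, Slc34a1 made up 96.7% (96.6 to 96.8) of 152107 reads in the control and 93.4% (93.2 to 93.5) of 105062 reads in the library labelled CKO. Slc20a1 made up 0.774% (0.731 to 0.820) and 3.01% (2.90 to 3.11). The mix of cotransporter reads thus held less Slc34a1 and more Slc20a1 in the library labelled CKO, a comparison free of the scaling factor. Slc34a2, the cotransporter of this family known mainly from lung and small intestine, had 122 and 2511 reads. It took 0.0816% (0.0678 to 0.0975) of the reads of the Slc34 genes in the control, against 2.45% (2.36 to 2.55) in the library labelled CKO, where it had more reads than Slc34a3. Its log2 ratio of 3.77 was the highest of the other phosphate genes.

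Slc9a3r1 encodes NHERF1, the PDZ scaffold that binds NaPi-IIa and the parathyroid hormone receptor, on chromosome 11 from 115163341 to 115181181 on the plus strand. It had 9785 reads in the control library, against 10588 in the library labelled CKO. After scaling the log2 ratio was -0.47 (95% interval -0.51 to -0.43), which was -0.05 with equal totals and changed sign to 0.12 with unaltered values. With a factor that sets the median of the proximal tubule markers to 0, it was 0.22, so the direction of this gene depends on the scaling. Slc34a1 reads per Slc9a3r1 read were 15.03 (14.7 to 15.3) in the control, against 9.27 (9.08 to 9.46) in the library labelled CKO. The cotransporter was thus lower relative to its scaffold, whatever the scaling.

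Pth1r, the receptor for parathyroid hormone and its related peptide, lies on chromosome 9 from 110722085 to 110747145 on the minus strand. It had 19416 reads in the control library, against 15355 in the library labelled CKO, for a log2 ratio of -0.92 (95% interval -0.95 to -0.89). Kl encodes alpha-Klotho, which turns FGF receptors into receptors for FGF23 and is made in the distal convoluted tubule and, at a lower level, in the proximal tubule. On chromosome 5 from 150952607 to 150993817 on the plus strand, it had 22019 and 17950 reads, for a log2 ratio of -0.88 (-0.91 to -0.85). Pth1r and Kl were lower in every setting tried, with ratios no nearer to 0 than -0.23 and -0.18.

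Fgfr1, the receptor tyrosine kinase that pairs with Klotho, lies on chromosome 8 from 25513654 to 25575718 on the plus strand. It had 1474 and 2381 reads, and its log2 ratio of 0.11 (95% interval 0.013 to 0.20) was near the median of all genes in the setting used. For each Fgfr1 read there were 14.9 Kl reads (14.2 to 15.8) in the control, against 7.54 (7.22 to 7.87) in the library labelled CKO. Co-receptor reads were thus fewer relative to receptor reads, without regard to scaling. Among the reads of the 4 FGF receptor genes, Fgfr1 took 28.8% (27.6 to 30.1) in the control, against 33.6% (32.5 to 34.8) in the library labelled CKO, while Fgfr4 took 36.9% (35.5 to 38.2) and 23.0% (22.1 to 24.0). The opposite-strand neighbours that overlap exons of Pth1r and Fgfr1, Myl3 and Gm16159, were not analysed here.

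Cyp27b1 encodes the mitochondrial hydroxylase that makes calcitriol in the proximal tubule, on chromosome 10 from 127048250 to 127053006 on the plus strand. It had 251 reads in the control library, against 784 in the library labelled CKO, and so was 2.08-fold higher (95% interval 1.80 to 2.41), an interval that reaches below 2-fold, and the log2 ratio was 1.06. Cyp24a1 encodes the hydroxylase that inactivates calcitriol and its precursor, on chromosome 2 from 170482708 to 170497145 on the minus strand. It had 48 and 486 reads, 6.75-fold higher in the library labelled CKO (5.01 to 9.28), and its log2 ratio of 2.73 ranked 271 of 17469 genes from the top. Both enzymes, which parathyroid hormone and calcitriol are known to move in opposite directions, were higher in the same library. Cyp24a1 shares exon sequence with Pfdn4 on the opposite strand, which had 677 and 892 reads (log2 ratio -0.19). Because the strand setting of the counting is not given in the sources used here, reads of genes that overlap on opposite strands cannot be told apart.

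Set against each other within a library, Cyp24a1 reads per Cyp27b1 read were 0.191 (95% interval 0.137 to 0.261) in the control, against 0.620 (0.552 to 0.695) in the library labelled CKO. The balance of reads was thus nearer to the inactivating enzyme in the library labelled CKO, although Cyp27b1 had more reads in both libraries. The control value rests on 48 reads of Cyp24a1 and was 0.288 with unaltered values.

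**Figure D2:**
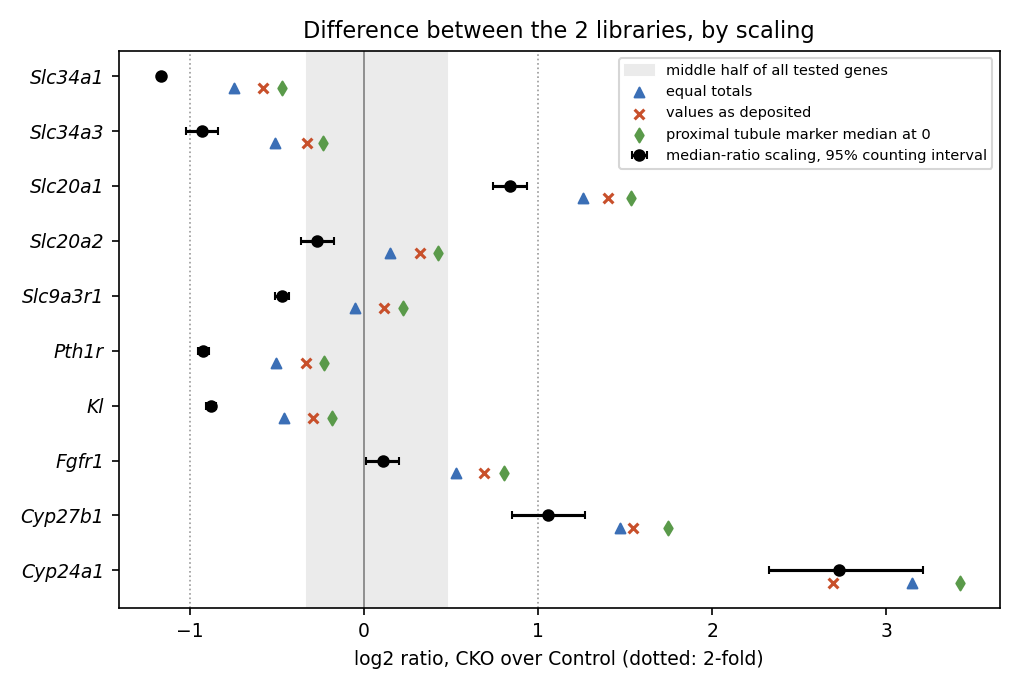
Log2 ratio of the library labelled CKO over the control library for each of the 10 genes, with 1 library per group. Black points are the main scaling with 95% counting intervals, coloured marks below them are 3 other scalings, the grey band is the range between the quartiles of all genes, and dotted lines mark 2-fold. Slc20a2 and Slc9a3r1 change sign between scalings, and the other 8 genes keep their side of 0.

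The bases before the transcription start are shown for Slc34a1, Kl and Cyp27b1, a cotransporter, the co-receptor and the activating enzyme, because the results on transport, hormone sensing and vitamin D turn on them. RefSeq promoter windows (GRCm38.p6) matched 7 of the 10 genes in 10 windows, and Cyp24a1, Slc20a2 and Fgfr1 were not analysed in this way. Each run is the 250 bases upstream of an annotated start, 5′ to 3′ on the strand of the gene, with matches to the searched motifs on either strand in capitals. The Slc34a1 window is chr13:55399398-55399647 (plus strand), inside the gene as annotated by GENCODE. The bases checked just after this window were not found in any GENCODE transcript of Slc34a1, so its start is given by RefSeq only. The Kl window is chr5:150952357-150952606 (plus strand) and the Cyp27b1 window chr10:127047996-127048245 (plus strand), both just upstream of the gene.
Slc34a1: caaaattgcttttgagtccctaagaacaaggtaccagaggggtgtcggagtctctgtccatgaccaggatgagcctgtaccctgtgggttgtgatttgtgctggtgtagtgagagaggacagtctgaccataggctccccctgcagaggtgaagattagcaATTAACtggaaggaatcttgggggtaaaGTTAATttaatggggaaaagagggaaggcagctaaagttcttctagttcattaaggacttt
Kl: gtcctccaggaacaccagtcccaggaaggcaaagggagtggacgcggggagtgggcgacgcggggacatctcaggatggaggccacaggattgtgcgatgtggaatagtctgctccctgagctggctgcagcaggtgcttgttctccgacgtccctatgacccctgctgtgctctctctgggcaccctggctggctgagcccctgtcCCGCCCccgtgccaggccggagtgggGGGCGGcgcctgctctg
Cyp27b1: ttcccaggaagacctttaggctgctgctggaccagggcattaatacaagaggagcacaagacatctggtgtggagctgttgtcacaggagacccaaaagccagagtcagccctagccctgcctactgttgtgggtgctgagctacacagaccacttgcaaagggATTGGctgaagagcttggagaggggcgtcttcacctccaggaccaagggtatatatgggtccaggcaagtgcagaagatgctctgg

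The motifs searched were TATAAA, held by 12.4% of 32851 RefSeq windows of this length, the CCAAT box (33.8%), GGGCGG, a GC box (32.7%), TGACGTCA, the cyclic AMP response element (1.55%), GTTAAT, a hepatocyte nuclear factor 1 half-site (6.43%), and the direct repeat of AGGTCA with 3 bases between, a form of vitamin D response element (2 windows). The Slc34a1 window held GTTAAT at 89 and at 61 bases before the start, once on each strand. No other window of the 10 held it. The Kl window held GGGCGG at 43 and at 17 bases before the start, and the Cyp27b1 window held CCAAT on the reverse strand at 86 bases. Of the 10 windows, 5 held CCAAT and 6 held GGGCGG, and the motifs did not overlap in the windows shown. TATAAA, TGACGTCA and the direct repeat had 0 matches in the 10 windows. A match describes the letters of a window and is not a measured binding site.

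The counts in the lists that follow stand beside the same shares of all genes as above, 51.5% higher, 48.3% lower and, past 2-fold, 13.4% higher and 5.35% lower. These shares are for the setting used, and shares higher or lower are not given for other settings. The median of all genes was 0.022 in the setting used, against 0.44 with equal totals and 0.57 with unaltered values. Of 22 other genes of phosphate handling on the list, 16 could be compared. Of these 5 were higher and 11 lower in the library labelled CKO, and the median log2 ratio was -0.25. It changed sign to 0.16 with equal totals, where 10 were higher and 6 lower. With unaltered values, which take in 17 genes, it was 0.36, with 12 higher and 5 lower. With the proximal tubule marker scaling 12 were higher and 4 lower. In the setting used the 5 higher genes were Slc34a2, Stc1 and Stc2, each at least 2-fold higher, and Ezr and Enpp1, at 0.035 and 0.089. The counting intervals of Stc1 and Stc2 reached below 2-fold, and that of Enpp1 held 0. At least 2-fold lower was 1. This was Slc17a3, an organic anion transporter of the proximal tubule named for its relation to phosphate carriers, with 24078 and 11601 reads, at a log2 ratio of -1.64. Its relative Slc17a1 was at -0.81. Pdzk1, a PDZ scaffold that also binds NaPi-IIa, was at -0.74, and Pdzd3, another scaffold of this kind, was at -0.996. The scaffold Slc9a3r2 was at -0.06 and above 0 with equal totals. Xpr1, the phosphate exporter, had 4541 and 4489 reads, at a log2 ratio of -0.60, or 0.094 with the proximal tubule marker scaling. The sodium-hydrogen exchanger Slc9a3 and the alkaline phosphatase Alpl, at -0.28 and -0.22, were above 0 with equal totals, at 0.14 and 0.20. Stc1, which encodes stanniocalcin, a hormone linked to renal phosphate handling, was higher, with 218 and 667 reads, at a log2 ratio of 1.03. Phex, with 8 and 4 reads, was below the minimum, and Ankh, Fgf23, Dmp1, Mepe and Sfrp4 were not analysed here.

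Hormone signalling outside the 10 genes was represented by 19 genes, of which 11 were higher and 8 lower, with a median of 0.031 that lay beside the 0.022 of all genes. With equal totals 18 were higher and 1, Fgfr4, was lower, and the median of 0.45 again lay beside the 0.44 of all genes. The share of all genes that were higher in that setting is not given, so this count does not set the list apart. Egr1, an early response gene that FGF23 and many other signals induce through the MAP kinase pathway, was the highest, with 431 and 3612 reads, at a log2 ratio of 2.48. Fgfr4 was the lowest at -0.79, with 1886 and 1630 reads. Of the other FGF receptors Fgfr2 had 332 and 1006 reads, at a log2 ratio of 1.01, and Fgfr3 was at -0.05, above 0 with equal totals. Adam10 and Adam17, proteases that can shed Klotho from the cell surface, were at 0.26 and 0.37. Pth, Pthlh, Pth2r and Klb were not analysed here.

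Of 13 other vitamin D genes 1 was higher and 12 were lower, with a median log2 ratio of -0.57, which was -0.15 with equal totals and changed sign to 0.21 with unaltered values. With equal totals, where the median of all genes was 0.44, 6 of the 13 were higher. In the setting used the higher gene was Gc, the vitamin D binding protein, made mostly in liver and taken up from the filtrate. It had 821 reads in the control library, against 14946 in the library labelled CKO, at a log2 ratio of 3.60 (95% interval 3.50 to 3.70). Vdr, the nuclear receptor for calcitriol, had 7672 and 6417 reads, at a log2 ratio of -0.84. Its partner Rxra was at -0.66, and both stayed below 0 with equal totals and with unaltered values. With the proximal tubule marker scaling, Rxra was at 0.036. Lrp2 encodes megalin, the endocytic receptor that retrieves the binding protein with its vitamin D, and had 103389 and 82681 reads, at a log2 ratio of -0.91. Its co-receptor Cubn was at -0.37, and at 0.047 with equal totals. Cyp27a1, a mitochondrial sterol hydroxylase that can act on vitamin D, was at -0.57, and at 0.026 with unaltered values. At least 2-fold lower were 2 of the 13. Lrpap1, which encodes a chaperone of megalin, had 20666 and 14956 reads, at a log2 ratio of -1.05 (95% interval -1.08 to -1.02) that was -0.63 with equal totals. Rxrg was the lowest at -1.14 but had only 13 and 8 reads and was at 0.30 with unaltered values, and Cyp2r1 was not analysed here.

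The 7 genes of calcium transport, several of them known to respond to calcitriol, had a median log2 ratio of 0.43, with 5 higher and 2 lower. The epithelial calcium channels stood above the rest. Trpv5, the channel of the distal tubule, had 263 and 2381 reads, at a log2 ratio of 2.59, and Trpv6 had 35 and 300 reads, at a log2 ratio of 2.48 (95% interval 2.01 to 3.06). The calcium-binding proteins that carry calcium across the same cells did not share this direction in the setting used. Calb1 had 4618 and 4625 reads, at a log2 ratio of -0.58, and S100g had 6203 and 6680 reads, at a log2 ratio of -0.48. Both stayed below 0 with equal totals and were above 0 with unaltered values, at 0.0071 and 0.11. The exits on the basolateral side were higher by less than 2-fold in the setting used. Slc8a1, a sodium-calcium exchanger, was at 0.49 and the calcium pumps Atp2b1 and Atp2b4 at 0.33 and 0.43. Slc8a1 passed 2-fold with unaltered values, at 1.07. With the proximal tubule marker scaling Slc8a1, Atp2b1 and Atp2b4 all passed it, at 1.19, 1.03 and 1.13.

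**Figure D3:**
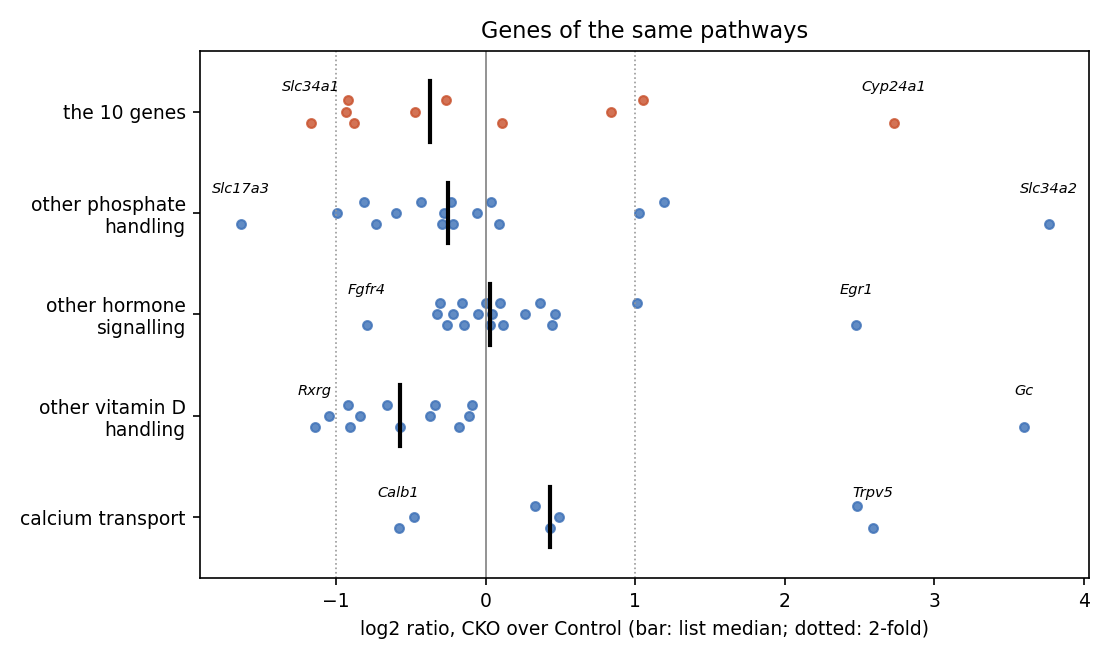
Log2 ratio of the library labelled CKO over the control library for the 10 genes and the genes of 4 related lists, each point a gene that passed the minimum of 10 scaled reads. Bars are medians, from -0.57 for vitamin D handling to 0.43 for calcium transport, and the medians of the 10 genes and of other phosphate handling change sign with equal totals and that of vitamin D handling with unaltered values. The highest and lowest gene of each list is named.

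Markers of the cell types of the kidney were read in the same libraries, since whole tissue was used. The labelled tissue held markers of proximal tubule at high level in both libraries. Of 14 proximal tubule markers, 13 had a lower level in the library labelled CKO and the median log2 ratio was -0.70. With equal totals 11 were lower and the median was -0.28, beside 0.44 for all genes. With unaltered values 8 were lower and 6 higher, and the median was -0.11, beside 0.57 for all genes. The summed reads of the markers were 611966 in the control, against 477321 in the library labelled CKO. Slc27a2, a fatty acid transporter and acyl-CoA synthetase, was the most abundant with 157696 and 100638 reads, Slc7a13 was the lowest at -2.95 and Slc5a12 the highest at 0.41. In bulk tissue fewer cells of a type and less RNA per cell cannot be told apart.

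As a percentage of the summed proximal tubule marker reads, Slc34a1 stood at 24.0% (95% interval 23.9 to 24.2) in the control, against 20.6% (20.4 to 20.7) in the library labelled CKO. The sum does not hold the reads of the genes set against it here, so these percentages are ratios and not shares. Slc34a3 stood at 0.368% (0.353 to 0.383) and 0.371% (0.354 to 0.389), and Pth1r at 3.17% (3.13 to 3.22) and 3.22% (3.17 to 3.27). Against the sum, Slc34a1 was thus lower, and differences of Slc34a3 and Pth1r were within counting error. Kl was at 3.60% (3.55 to 3.65) and 3.76% (3.70 to 3.82). Slc9a3r1 was higher relative to the sum, at 1.60% (1.57 to 1.63) and 2.22% (2.18 to 2.26). These comparisons depend on how the markers are combined, since the log2 ratio of the sum was -0.94 and the median of the markers -0.70. Against the median, Slc34a3, Pth1r and Kl were lower, at -0.24, -0.23 and -0.18, Slc34a1 was at -0.47 and Slc9a3r1 at 0.22. Of the 14 markers, 4 had a lower log2 ratio than Slc34a1. The part of the proximal tubule markers in the lower values of these genes was not tested.

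Markers of the other tubule segments were read in the same way. Of 4 markers of the thick ascending limb, Umod and Cldn16 were higher and Slc12a1 and Kcnj1 lower, the last pair above 0 with equal totals. Their median was 0.21, or 0.63 with equal totals, and Umod, the most abundant, had 90047 and 187056 reads, of summed reads of 132618 and 246048. The range was from -0.14 for Slc12a1 to 0.83 for Cldn16. Of 6 markers of the distal convoluted and connecting tubule, where Kl is also made, 3 were higher and 3, Pvalb, Klk1 and Calb1, were lower, with a median of -0.25 that was 0.17 with equal totals. Their summed reads were 59239 and 62794, most of them from Klk1, and they ran from Pvalb at -1.17 to Trpv5. Calb1 and Trpv5 are on this list and on the calcium list. Against the summed distal markers Kl stood at 37.2% (36.6 to 37.7) in the control, against 28.6% (28.1 to 29.1) in the library labelled CKO. That sum does not hold the reads of Kl, and the part of these markers in the lower value of Kl was not tested. Of 8 collecting duct markers 6 were higher and 2, Aqp3 and Slc4a1, were lower. Their median was 0.28, from Slc4a1 at -0.27 to Aqp2, also the most abundant, at 0.79. With equal totals 8 were higher and the median was 0.70, beside 0.44 for all genes. The summed reads of these markers were 15665 and 30482.

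Of 5 podocyte markers 2 were higher, Podxl and Synpo, and of 6 endothelial markers 2, Emcn and Tek. The medians of -0.11 and -0.08 were above 0 with equal totals, at 0.30 and 0.34. Podocyte reads summed to 8426 and 12034, led by Podxl, and the highest ratio was that of Synpo at 0.28. Endothelial reads summed to 12680 and 17323, led by Plvap, from Kdr at -0.67 to Emcn at 0.14. The stromal and macrophage lists stood apart from these. All 8 stromal markers were higher, with a median of 1.79 and summed reads of 7031 and 34974. By reads Pdgfrb led the list in the control library, and it had the lowest ratio at 0.48, while Col1a1 had the highest at 2.65. All 8 macrophage markers were higher as well, with a median of 2.64 and summed reads of 6096 and 46061. Cd74 was the most abundant with 2610 and 23956 reads, Csf1r the lowest at 0.51 and Lyz2 the highest at 3.66. Macrophages and stromal cells can express Cyp27b1, Slc20a1 and Fgfr1, and the part of these cells in the values of those genes was not tested.

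**Figure D4:**
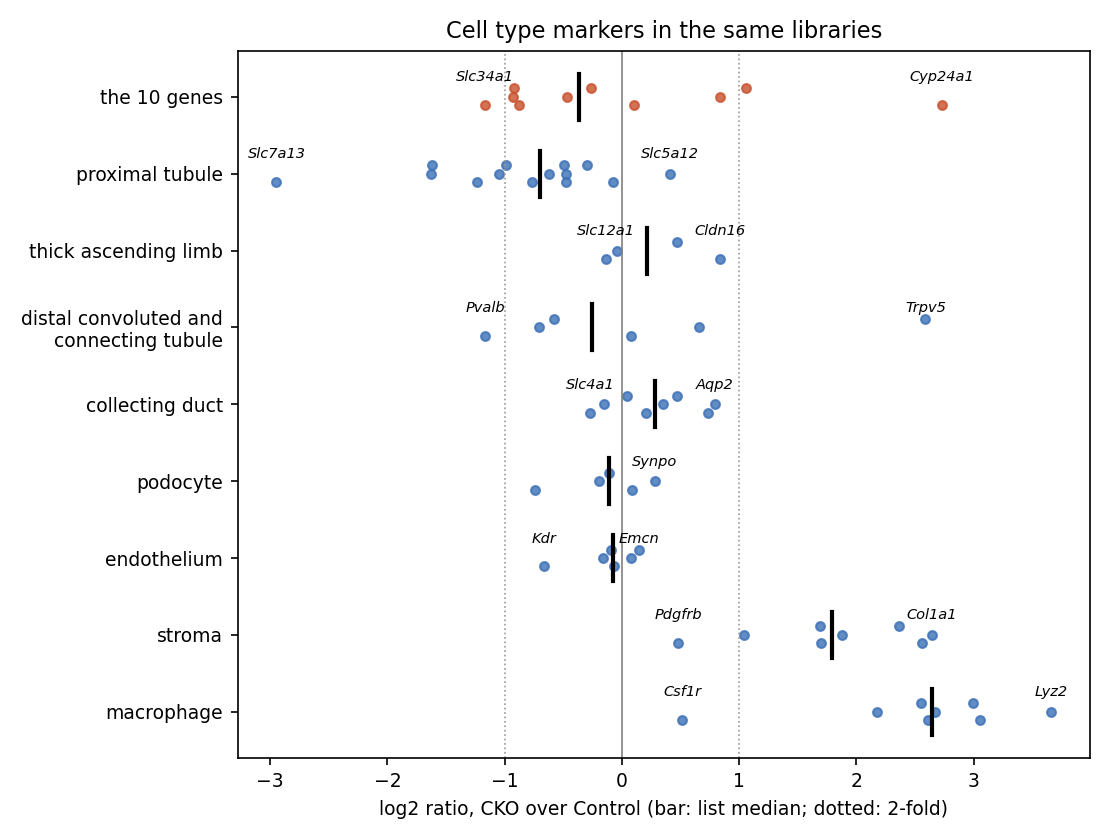
Log2 ratio of the library labelled CKO over the control library for the 10 genes and for markers of 8 cell types, each point a gene, bars the medians, dotted lines 2-fold. The medians run from -0.70 for proximal tubule to 2.64 for macrophages, and those of the 10 genes, distal tubule, podocyte and endothelium change sign with equal totals.

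By position in both libraries, the 3 genes nearest to each of the 10 were listed, using the distance in log2 reads over the 2 libraries. Nearest to Slc34a1 were Slc27a2, Fth1 and Atp5b, with log2 ratios of -1.23, -0.80 and -0.69, and the nearest lay 0.11 away. Around Kl were Ech1, Pcx and Cycs, all within 0.063 and with ratios from -0.97 to -0.91. Near Cyp24a1 lay Fcer1g, Casp12 and Ugt1a1, with ratios from 2.46 to 2.62. Over 2 libraries such likeness means only similar reads in each.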

How the data were processed

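Whole-kidney poly(A) RNA of 1 control and 1 CKO library was sequenced after a stranded kit, and both libraries were used. For alignment the authors used STAR 2.7.3a, for counting HTSeq and for normalization DESeq2, with mm10 named in the submitters' processing notes. The deposited values are a score: whole numbers that the authors call normalized counts, which carry a constant in each column and are not on a common scale. Treating them as reads plus a constant rests on the lowest values. The column minimum minus 1 was subtracted, and CKO reads were multiplied by the median gene ratio of 0.667.

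The 10 genes and the lists were chosen with earlier results of these data known. Genes that reached 10 scaled reads in either library were compared at a 2-fold threshold, with a pseudocount of 1 for log2 ratios. Folds and 95% Clopper-Pearson intervals used reads without a pseudocount. Genes named in the text were the 10, the target, the highest and lowest gene of each list, the most abundant marker of each list, all calcium genes, a set of further pathway genes by symbol, and the 3 genes nearest to each of the 10, of which those of 3 are given. Some genes that this rule covers are not reported here. Genes that overlap exons of the 10 and listed genes that are not analysed here were named in addition. Phex, Pdzd3, Lrpap1 and the genes that complete a count of 5 or fewer were named after their values were seen. Alternatives were equal totals, equal upper quartiles, a median ratio over genes with at least 50 reads, the column minimum subtracted, values as deposited, pseudocounts of 0.1 and 10, a filter at 50 reads or none, a 1.5-fold threshold, median transcript length, and, chosen after seeing the data, a scaling that sets the proximal tubule marker median to 0. The steps were tested on simulated counts with the same column constants and equal numbers of genes raised and lowered. That test cannot show whether the subtraction or the scaling suits these libraries. Positions and lengths came from GENCODE M21 and promoters from RefSeq. Python 3.11.15, numpy 2.4.6, pandas 2.3.3, scipy 1.17.1 and matplotlib 3.10.9 were used.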

Additional observations from a re-analysis of the deposited data

How the results depend on the processing

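No paired analysis was possible because the groups hold 1 library each. With equal totals the median of all genes moved to 0.44, 3 of the 10 genes were at least 2-fold higher and 0 lower, the median of the 10 was 0.049, and 3870 genes were at least 2-fold higher and 437 lower, so that 89.9% of genes past 2-fold were higher. The medians of the other phosphate, hormone signalling, vitamin D and calcium lists were then 0.16, 0.45, -0.15 and 0.85. With the values as deposited the median of all genes was 0.57, again 3 of the 10 were 2-fold higher and 0 lower, their median was 0.22, 3574 genes were higher and 131 lower (96.5% higher), the 4 list medians were 0.36, 0.62, 0.21 and 0.99, and Cyp24a1 reads per Cyp27b1 read in the control were 0.288. With the proximal tubule marker median set to 0, a scaling chosen after seeing the data, the median of all genes was 0.72, 3 of the 10 were 2-fold higher and 0 lower, their median was 0.33, 5744 genes were higher and 277 lower (95.4% higher), and the list medians were 0.44, 0.73, 0.12 and 1.13. Slc20a2 and Slc9a3r1 were then at 0.43 and 0.22, both above 0, and Slc34a1 was at -0.47.

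With at least 50 scaled reads 14396 genes were compared in place of 17469, and 1614 were 2-fold higher and 617 lower. At a 1.5-fold threshold 3 of the 10 genes were higher and 4 lower, and 3801 of all genes were higher and 2423 lower. With the median transcript length, the level of Slc34a1 per kilobase in the control library was 7.42-fold that of the next gene. Of 80 log2 ratios of the 10 genes under alternatives, 45 stayed within the counting interval and 35 moved beyond it, leaving out the 20 from the filters, which cannot change a gene's own ratio. Slc34a1, Slc34a3, Pth1r and Kl were below 0 and Slc20a1, Fgfr1, Cyp27b1 and Cyp24a1 above 0 in every alternative run. The scalings differ in the factor applied to every gene, and the values as deposited also keep the column constants and take in all 20002 genes. Which of them suits these libraries was not tested. Depth limits Cyp24a1 most among the 10, with 48 control reads.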
